A study of Danio rerio with 6 samples.

Results

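Matrix metalloproteinases (MMPs) and a tissue inhibitor of metalloproteinases (TIMP) were followed in zebrafish embryos on 5 Affymetrix probe sets of 4 genes. The genes are mmp9, mmp13a, mmp14a and timp2b, and timp2b has 2 probe sets. Members were all probe sets of the authors' deposited comparison tables whose gene symbol starts with mmp or timp. Those tables name 1664 genes with 1 informative symbol, on 1821 probe sets, and list only probe sets at or beyond a fold of 2 or 0.5. The reference gene table holds 25 mmp and 5 timp genes, of which 26 are not named in the deposited tables and were not analysed here. All 5 probe sets stand in both tables that involve ERbeta2 MO embryos, and 0 stand in the table of uninjected over coMO embryos. The differences of ERbeta2 MO embryos from both controls thus chose the members, and they are given below as a description with no test.

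RNA came from whole embryos at 72 h after fertilization, in 3 groups of 2 arrays. ERbeta2 MO embryos had received 50 uM of a morpholino, a synthetic antisense oligonucleotide, directed against ERbeta2, an estrogen receptor. coMO embryos had received 50 uM of coMO, a control morpholino. Uninjected embryos had received no morpholino. Eggs came from a pool over different aquaria, injections ended by the 4-cell stage, and dishes were kept at 28 °C. Strain and genotype are not stated in the sources. Replicates are titled biological, but nothing says that they came from separate spawnings, so the spread between them may be partly technical. The knockdown was not checked here, and the labels do not say whether the morpholino acts on translation or on splicing.

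MMPs are zinc-dependent proteases that are made as inactive proenzymes and cut collagens and other proteins of the extracellular matrix once a propeptide is removed. TIMPs bind the active site of MMPs and block it. In mammals the membrane-anchored protease MMP14 activates other MMPs at the cell surface, and TIMP2 takes part in that step as an adaptor besides being an inhibitor. In zebrafish, mmp9 and mmp13a are known to be switched on in wounded and regenerating fins and to be made by leukocytes.

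Besides 115 controls, 15502 probe sets were measured, with array medians of 198 to 228 in MAS5 signal, a linear intensity scaled per array. Replicates correlated at r = 0.975 to 0.987 across probe sets on the log2 scale, and ERbeta2 MO arrays with either kind of control at 0.900 to 0.908. The 3' over 5' ratio of the GAPDH control probe sets, which reflects RNA integrity and labelling, was 2.14 to 2.15 on the ERbeta2 MO arrays, against 1.34 to 1.66 on the coMO arrays and 1.35 to 1.47 on the uninjected arrays. That ratio moved with every difference between ERbeta2 MO and control embryos given here, and its part in them was not tested.

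The secreted gelatinase gene mmp9 was about 29-fold higher in ERbeta2 MO embryos than in coMO embryos. Probe set Dr.967.1.S1_at (Entrez gene 406397) had MAS5 signals of 4090 and 3913 on the ERbeta2 MO arrays, against 138 and 138 on the coMO arrays and 174 and 142 on the uninjected arrays. Both ERbeta2 MO arrays stood far above the other 4, which lay close together. The means were 4001 ± 125 in ERbeta2 MO embryos, against 138 ± 0.571 in coMO and 158 ± 22.4 in uninjected embryos (SD, n = 2 each). The ratio of means was 29.0 against coMO and 25.3 against uninjected embryos. Single ERbeta2 MO arrays exceeded single coMO arrays by 28.3-fold to 29.7-fold, and single uninjected arrays by 22.5-fold to 28.8-fold.

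The collagenase gene mmp13a, on probe set Dr.10314.1.S1_a_at (Entrez gene 387293) and written mmp13 in the files, gave 2395 and 1891 in ERbeta2 MO embryos, against 156 and 190 in coMO and 159 and 122 in uninjected embryos. The ERbeta2 MO arrays were again both high, and the coMO and uninjected arrays overlapped. The ratio of means was 12.4 against coMO and 15.3 against uninjected embryos. Pairs of single arrays ranged from 9.95-fold to 15.4-fold against coMO and from 11.9-fold to 19.6-fold against uninjected embryos, a wider spread than that of mmp9, and the ERbeta2 MO arrays themselves lay further apart (2143 ± 356, SD, n = 2).

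The inhibitor gene timp2b (Entrez gene 406650), written timp2l in the files, was measured on 2 probe sets that pointed the same way. The first, Dr.22985.1.A1_at, gave 1009 and 1105 in ERbeta2 MO embryos, against 87.0 and 71.2 in coMO and 65.4 and 63.5 in uninjected embryos. The second, Dr.15281.1.A1_at, gave 1051 and 1151 in ERbeta2 MO embryos, against 153 and 125 in coMO and 127 and 102 in uninjected embryos. On both, the ERbeta2 MO arrays stood above the other 4. The ratio of means against coMO was 13.4 on the first probe set, with pairs of single arrays from 11.6-fold to 15.5-fold, and 7.92 on the second, with pairs from 6.89-fold to 9.18-fold. Against uninjected embryos it was 16.4 on the first and 9.61 on the second. The probe sets thus differed in the size of the change and not in its direction, and the smaller ratio belonged to the probe set with the higher control signals.

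The membrane-anchored protease gene mmp14a went the other way. Probe set Dr.4229.1.S1_at (Entrez gene 373882) gave 194 and 118 in ERbeta2 MO embryos, against 273 and 308 in coMO and 368 and 257 in uninjected embryos. The ERbeta2 MO arrays lay below the other 4, but their own values differed widely (156 ± 53.6, SD, n = 2). The ratio of means was 0.535 against coMO, where pairs of single arrays ranged from 0.382 to 0.708. Against uninjected embryos it was 0.498, with pairs from 0.320 to 0.754. In bulk RNA, fewer cells that express a gene and less RNA per cell cannot be told apart.

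**Figure D1:**
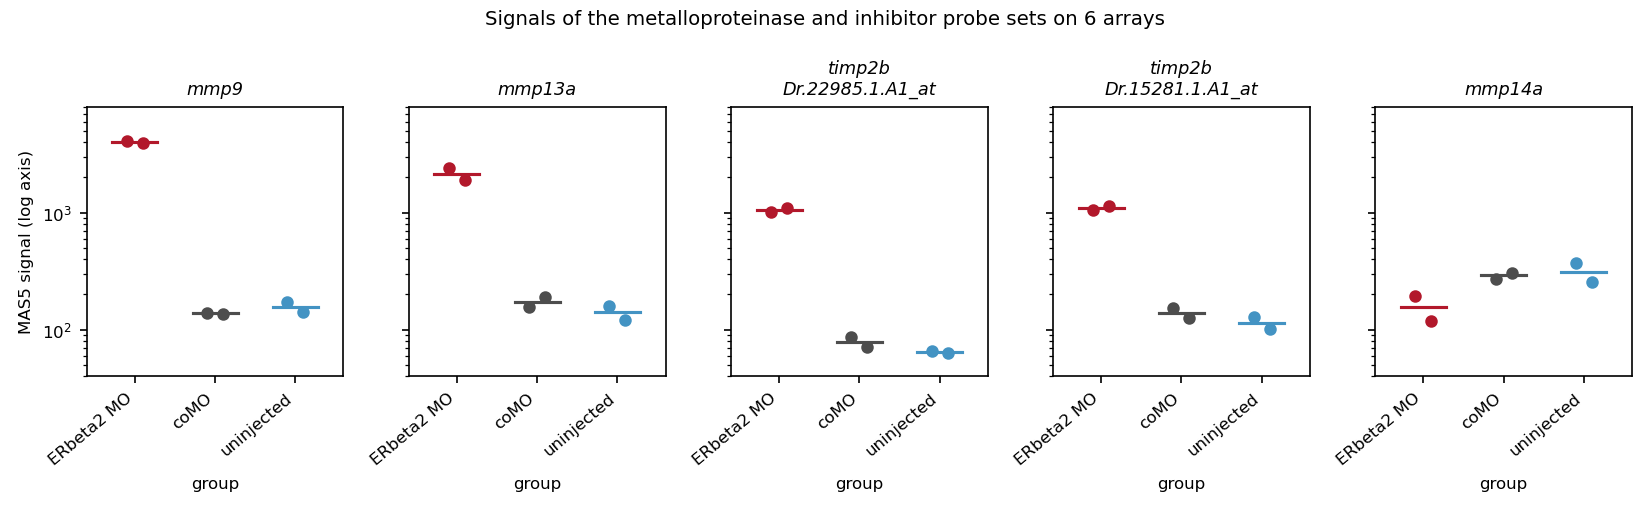
MAS5 signal on a log axis for the 5 probe sets, with 1 point per array and a line at the mean of each group of 2. The ERbeta2 MO points lie above the coMO and uninjected points for mmp9, mmp13a and both timp2b probe sets, and below them for mmp14a.

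The groups did not overlap for 5 of 5 probe sets against coMO and against uninjected embryos. The same held for 78.7% and 78.9% of all 9302 probe sets tested, and the choice of members used these comparisons, so nothing is read from that count. Differences were also taken as log2(signal + 16), an offset that shrinks the change of dim probe sets. On that scale the difference against coMO was 4.71 ± 0.16 for mmp9 and 3.51 ± 0.18 for mmp13a. It was 3.50 ± 0.20 and 2.85 ± 0.19 for timp2b and -0.87 ± 0.22 for mmp14a (SE from limma's pooled spread). Against uninjected embryos the log2 differences were 4.54 ± 0.16, 3.79 ± 0.18, 3.74 ± 0.20, 3.10 ± 0.19 and -0.95 ± 0.22 in the same order. By the log2 difference against coMO, mmp9, mmp13a and timp2b took places 2, 3, 4 and 8 from the top of the 9302 tested. The last is that of the second timp2b probe set. mmp14a took place 1152 from the bottom. Probe sets below the filter have no place here, such as that of the hatching enzyme gene he1.1, which at 4.39 exceeded mmp13a. The same values chose the members, so nothing is read from these places. The comparisons share the ERbeta2 MO arrays, so their likeness is not independent.

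**Figure D2:**
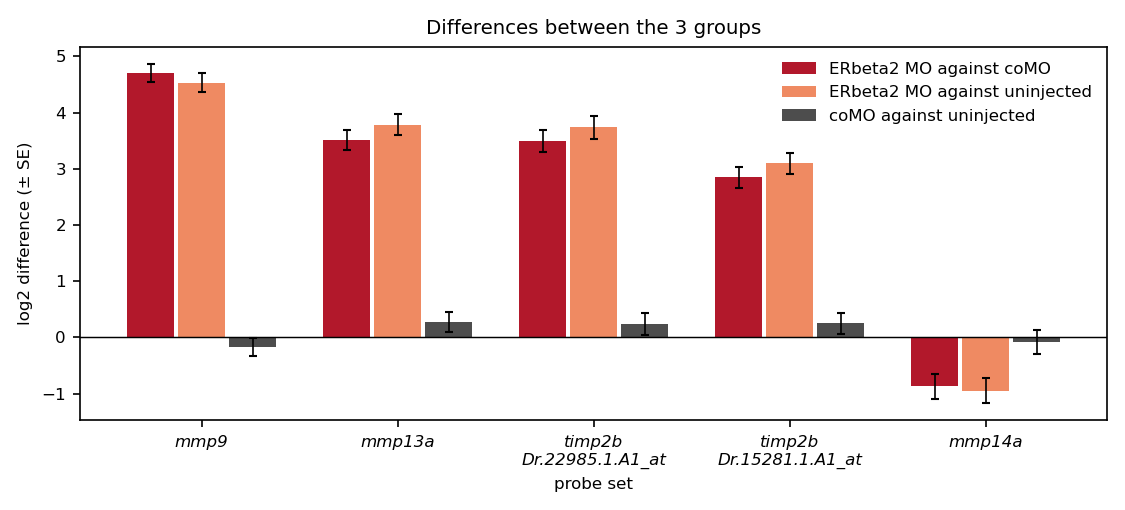
Log2 differences of the 5 probe sets between each pair of groups, with bars starting at 0 and error bars of 1 SE from limma. The bars that involve ERbeta2 MO reach 2.85 to 4.71 for mmp9, mmp13a and timp2b and about -0.9 for mmp14a, while the coMO against uninjected bars stay between -0.17 and 0.27.

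The folds in the authors' deposited table of ERbeta2 MO over coMO lay further from 1 than the ratios of signals, at 46.0 for mmp9, 20.8 for mmp13a, 18.8 and 14.2 for timp2b and 0.403 for mmp14a. In the authors' deposited table of ERbeta2 MO over uninjected they were 32.3, 25.4, 25.9, 16.7 and 0.399. How that fold was computed is not stated in the files or labels. The limits of these tables are 0.5 and 2, and mmp14a is the member nearest to them. No MMP or TIMP probe set outside the tables is named here, so none can be set beside it.

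The control injection was compared with no injection, a contrast that chose none of the members. In limma 0 of 5 probe sets differed between coMO and uninjected embryos at an adjusted p of 0.05, and 0 had an unadjusted p under 0.05, with or without a trend in the spread model. Across all 9302 probe sets 0.505% were called. The log2 difference of coMO minus uninjected was -0.17 for mmp9 (limma, adjusted p = 0.879) and 0.27 for mmp13a (limma, adjusted p = 0.797). For timp2b it was 0.24 and 0.25 (limma, adjusted p = 0.861 and 0.838), and for mmp14a -0.08 (limma, adjusted p = 0.959). The filter on mean signal included the ERbeta2 MO arrays, where timp2b was high. Its coMO and uninjected signals (63.5 to 87.0 on the first probe set, 102 to 153 on the second) were dim. They lay below those of loxa, a gene given below that the filter left out. The same held for the coMO and uninjected signals of mmp9 (138 to 174) and mmp13a (122 to 190), genes also high on the ERbeta2 MO arrays. Little is therefore read from the tests of mmp9, mmp13a and timp2b. The 95% intervals of the 5 ratios, taken with the offset that shrinks the change of dim probe sets, lay within 0.687 to 1.57. A change of up to about that size was not excluded by these arrays. The coMO and uninjected arrays did not overlap for mmp9 and for timp2b on the first probe set, as for 34.3% of all probe sets tested. The order of the groups was therefore ERbeta2 MO highest for mmp9, mmp13a and timp2b and lowest for mmp14a. The coMO and uninjected embryos lay next to each other, with no difference called in limma, which does not show that they were equal.

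The sizes moved with the scaling of the arrays. Control RNAs added before labelling (poly-A spikes) and before hybridization gave lower signals in the ERbeta2 MO group. Averaged as log2, the poly-A spikes stood at 6.25 to 6.57 on ERbeta2 MO arrays, against 7.33 to 7.68 on coMO arrays and 6.99 to 7.33 on uninjected arrays. With arrays scaled on these spikes the median log2 difference of all tested probe sets against coMO became 0.98, in place of 0.05 as deposited. With that scaling mmp9 stood at 5.64, mmp13a at 4.45 and timp2b at 4.43 and 3.79, and mmp14a turned to 0.063. Against uninjected embryos mmp14a kept its sign at -0.31, where the median of all probe sets was 0.69. The spike scalings and median centring shift all probe sets of a comparison alike, so they leave the distance of mmp14a from that median as it was.

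**Figure D3:**
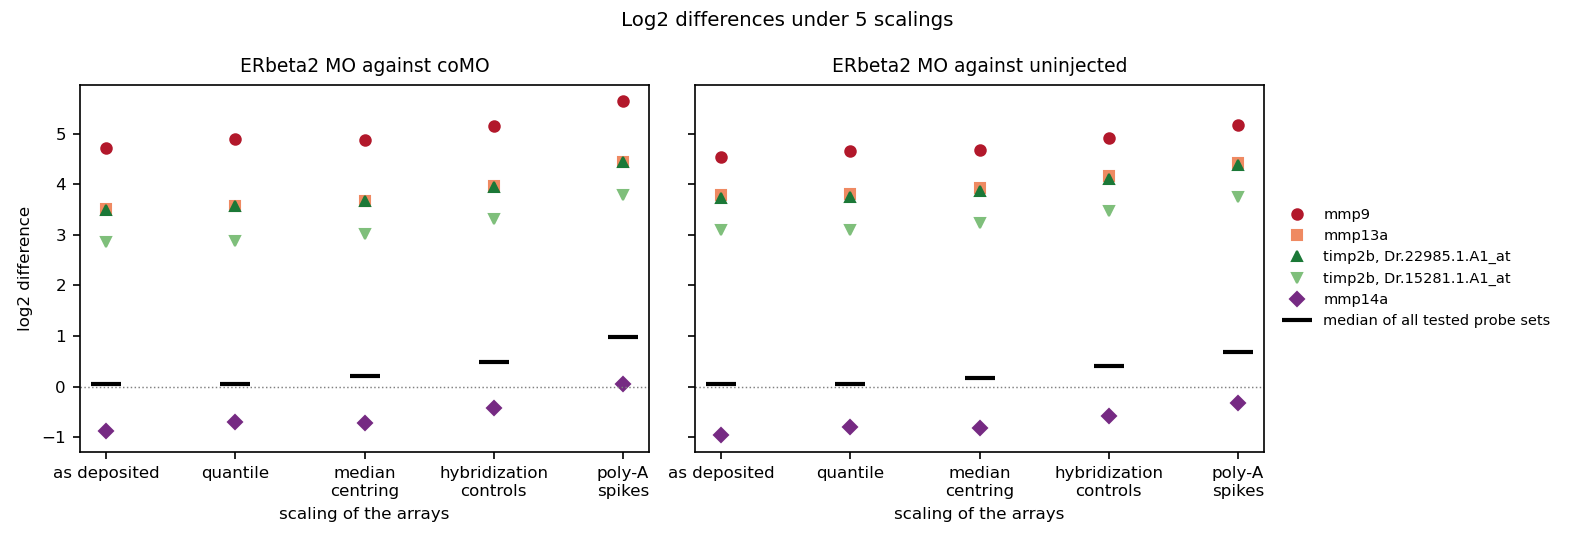
Log2 differences of the 5 probe sets under the deposited scaling and 4 others, with the median of all tested probe sets as a black dash. mmp9 is highest and mmp14a lowest under each scaling, mmp13a and the first timp2b probe set lie close together (3.57 and 3.58 against coMO with quantile normalization), and all points shift up with the spike scalings as the median does, and mmp14a reaches 0.063 against coMO with the poly-A spikes.

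Profiles over the 6 arrays were compared by the root mean square difference of log2 values after each profile was centred on its own mean. The distance was 0.22 between mmp13a and the first timp2b probe set, smaller than the 0.31 between the 2 timp2b probe sets. mmp9 lay 0.51 from mmp13a and 0.51 and 0.80 from the timp2b probe sets. mmp14a lay 1.86 to 2.61 from all of them. Among 1491 tested probe sets with 1 informative symbol, the nearest to mmp9 were mmp13a, both timp2b probe sets, slc4a1a (0.85) and odc1 (0.87). The gene slc4a1a encodes the chloride and bicarbonate exchanger of erythrocytes, and odc1 encodes the first enzyme of polyamine synthesis. Nearest to mmp13a after timp2b were odc1 (0.42), gtpbp1 (0.43) and fosl2, a transcription factor of the AP-1 family (0.47). Nearest to the first timp2b probe set after mmp13a and the second timp2b probe set were slc4a1a (0.38), gtpbp1 (0.41) and odc1 (0.42). odc1, for example, gave 3353 and 3246 in ERbeta2 MO embryos, against 446 and 525 in coMO and 455 and 426 in uninjected embryos. These distances describe patterns chosen on the same arrays. They mostly restate how far each probe set differed between ERbeta2 MO and the controls, which is what chose the members. The candidates were also named only for differences on these arrays. Nearness is therefore not read as shared control of the genes.

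Other genes of matrix turnover were taken from lists, 1 probe set per gene, among genes that the deposited tables name. Of all 1377 such genes tested, 97.0% were past an adjusted p of 0.05 (limma) against coMO (53.4% higher and 43.6% lower), and 98.1% against uninjected embryos (54.2% higher and 43.9% lower). Over all 9302 probe sets the shares were 56.2% and 56.9%. A gene is named there only for a difference of at least 2-fold on these arrays, so the number of list genes that passed is close to fixed by the naming, and no list is called particular. The median log2 difference of the 1377 genes was 0.61 against coMO and 0.62 against uninjected embryos.

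A list of transcription factor and cytokine signalling genes linked to the control of MMP genes was searched. Its genes that the deposited tables do not name were not looked at. The named ones were mostly higher in ERbeta2 MO embryos, with fosab as an exception. Of 10 tested against coMO 10 rose, with a median log2 difference of 1.58, and against uninjected embryos 9 rose. The AP-1 factor gene fosl2 gave 1706 and 1872 in ERbeta2 MO embryos, against 249 and 240 in coMO and 283 and 232 in uninjected embryos. Both ERbeta2 MO values exceeded the others on this probe set, at a log2 difference of 2.79 against coMO. The other fosl2 probe sets stood at 2.29 and 1.62 against coMO, and both passed as well. The cytokine signalling inhibitor socs3b (log2 2.63), the stress factor atf3 (2.57) and the AP-1 factor junbb (2.03) followed. These are the largest 4 of the list, and all 10 rises passed under the 4 other scalings. The list gene fosab has 4 probe sets, whose log2 differences against coMO ran from -0.12 to 0.84, and only the brightest is in the count. Against uninjected embryos the differences of all 4 fosab probe sets were negative, from -0.79 to -0.05, and 2 of them fell (limma, adjusted p = 0.00359 and 0.000259). The brightest fosab probe set gave 1277 and 1282 in ERbeta2 MO embryos, against 696 and 717 in coMO and 1517 and 1338 in uninjected embryos, and it was lower in coMO than in uninjected embryos (limma, adjusted p = 0.00128).

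Collagens, which are among the substrates of MMPs, were mostly lower. Of 8 tested genes 7 fell and 1 rose in both comparisons with ERbeta2 MO, at a median log2 difference of -1.38 against coMO and -1.38 against uninjected embryos. The collagen gene col10a1a is also among the bone and cartilage markers given below. It gave 249 and 241 in ERbeta2 MO embryos, against 3288 and 3850 in coMO and 3575 and 3398 in uninjected embryos. The fibrillar collagen genes col1a2 and col1a1a stood at log2 -1.61 and -1.42, and col6a3 at -1.41, against coMO. The gene that rose was col14a1a (log2 0.55). With the poly-A scaling only 3 of the falls against coMO passed (5 against uninjected embryos), and col9a2 turned positive against coMO. The col9a2 fall was also lost with the hybridization control scaling.

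Other matrix proteins were split. Of 9 tested genes 5 rose and 4 fell in both comparisons, at a median of 0.54 against coMO. The cartilage protein gene matn1 stood at log2 -4.71, sparc, a collagen-binding protein of bone and other tissues, at -1.31, and the fibronectin genes fn1b and fn1a at 1.91 and 1.40. The fibulin family gene efemp2a stood at 1.33 and, on a second probe set, at 0.84. fn1b gave 3016 and 4172 in ERbeta2 MO embryos, against 1060 and 817 in coMO and 773 and 821 in uninjected embryos. The bone matrix gene spp1 was too dim to be tested, at 25.3 and 33.2 in ERbeta2 MO embryos, against 128 and 147 in coMO and 111 and 130 in uninjected embryos. The rise of lamc1, a laminin chain gene, against coMO was lost with quantile normalization. With the poly-A scaling the 5 rises passed, and 1 of the falls against coMO and 2 against uninjected embryos. Of the matrix assembly and crosslinking genes, 2 of 2 tested rose, the transglutaminase gene tgm2b (log2 1.45) and the collagen prolyl hydroxylase gene p4ha1b (1.35). The lysyl oxidase gene loxa was too dim to be tested, at 38.4 and 31.9 in ERbeta2 MO embryos, against 256 and 228 in coMO and 241 and 193 in uninjected embryos.

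The other protease inhibitors named, none of them a TIMP, were lower in ERbeta2 MO embryos. Whether they act on MMPs was not looked at here. All 3 tested fell in both comparisons, among them tfpil, a relative of the tissue factor pathway inhibitor (142 and 149 in ERbeta2 MO, 1070 and 956 in coMO, 1239 and 1171 in uninjected embryos). The plasma inhibitor genes serpina1 and serpinc1 stood at log2 -1.34 and -1.28 against coMO, and with the poly-A scaling only tfpil passed against coMO, and tfpil and serpina1 against uninjected embryos. The gene serpina7, in the list by its serpin family name only, was too dim to be tested. It gave 25.0 and 19.5 in ERbeta2 MO embryos, against 110 and 107 in coMO and 135 and 203 in uninjected embryos. Of the cathepsins, lysosomal proteases, ctss2.1 (log2 1.34) and ctsla (0.95) rose and ctsba (-0.74) fell. The fall of ctsba was lost with both spike scalings against coMO, where the poly-A spikes turned it positive, and with the poly-A spikes against uninjected embryos. Of 4 other metalloproteinases named, only the meprin gene mep1a.1 was bright enough to be tested, and it fell (log2 -1.54), a call lost against coMO with the poly-A scaling. The hatching enzyme gene he1.1, a member of the same protease clan, gave 963 and 861 in ERbeta2 MO embryos, against 65.1 and 7.95 in coMO and 16.1 and 23.2 in uninjected embryos. Its ERbeta2 MO arrays stood far above the rest, although it lay below the filter on mean signal. The related genes he1.2 (71.0 and 87.4 in ERbeta2 MO embryos, against 38.0 and 42.2 in coMO and 5.56 and 40.5 in uninjected embryos) and c6ast3 (18.6 and 45.1 in ERbeta2 MO embryos, against 145 and 144 in coMO and 173 and 262 in uninjected embryos) lay below it too. Plasminogen, proprotein convertase and membrane serine protease genes, which act on MMP proenzymes, had 0 named members.

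**Figure D4:**
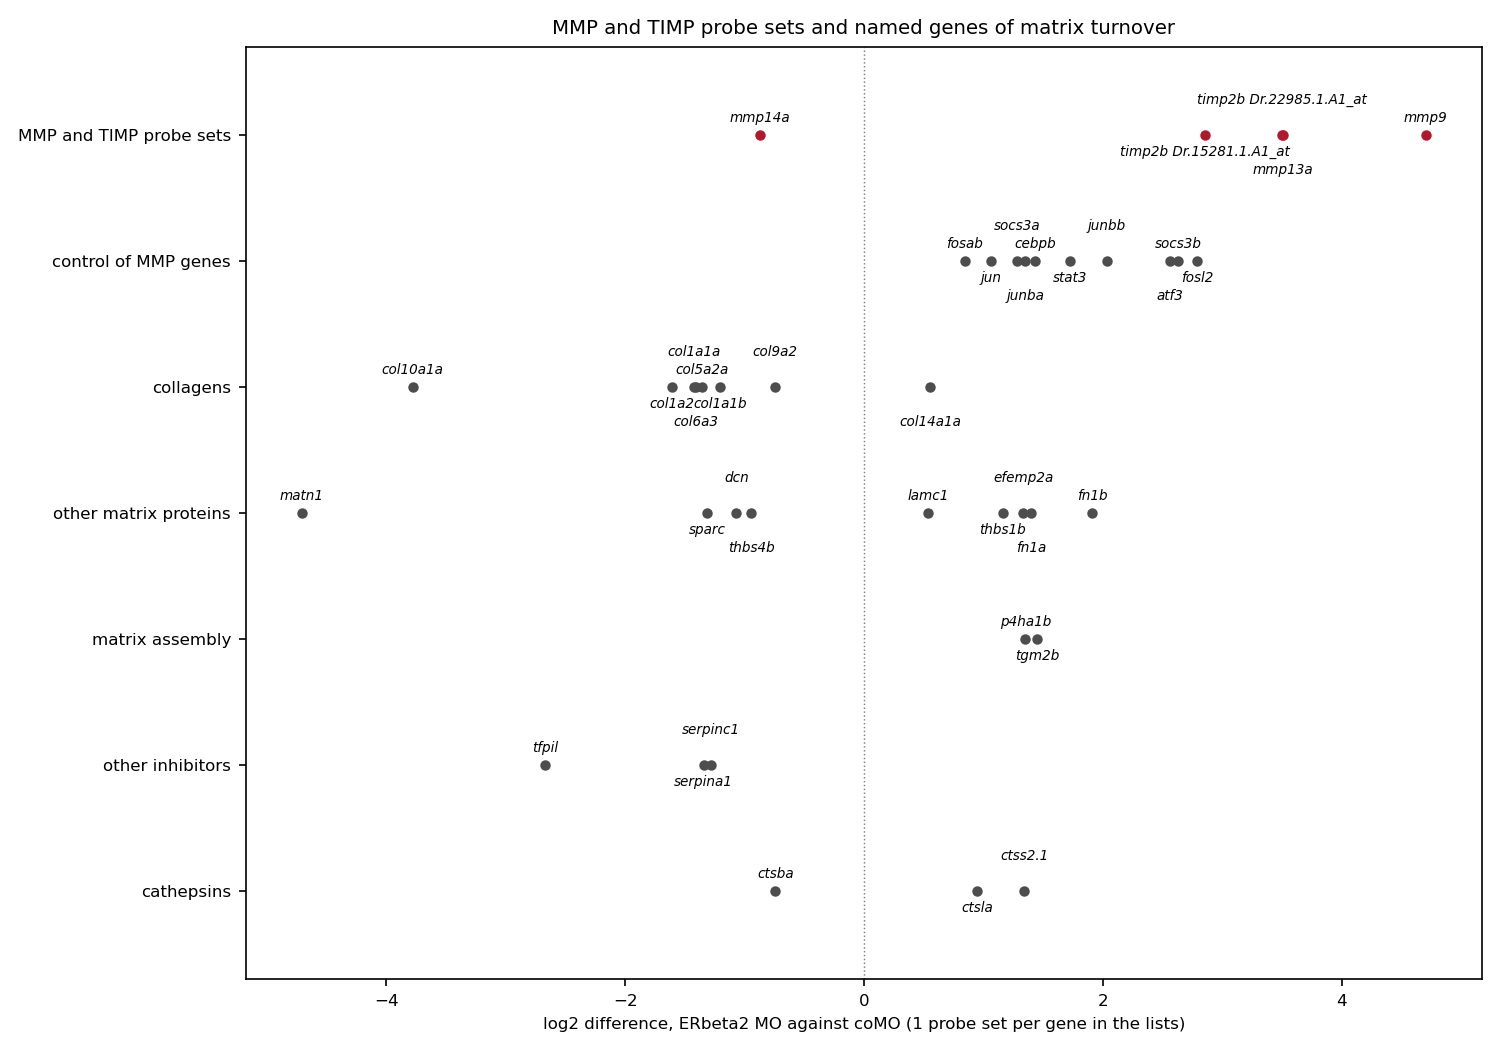
Log2 difference of ERbeta2 MO against coMO for the MMP and TIMP probe sets (red) and for the tested named genes of 6 lists (grey), 1 point per probe set. The 3 points of timp2b and mmp13a and that of mmp9 lie to the right of every list gene shown, and 7 of 8 collagens lie left of 0. The hatching enzyme gene he1.1 (log2 4.39, below the filter) is not shown.

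Markers of cells that could carry these transcripts were measured beside them. As with the lists above, only named genes were used, which were chosen for a difference on these arrays. Markers that did not differ are thus left out of the sums. Of 10 neutrophil and granulocyte markers 2 are named, and their summed signal was 518 to 564 in ERbeta2 MO embryos, against 5158 to 5610 in coMO and 4954 to 6211 in uninjected embryos. The carboxypeptidase gene cpa5 made up most of the sum on the coMO and uninjected arrays and the smaller share of it on the ERbeta2 MO arrays (93.5 and 79.5). The lysozyme gene lyz gave 425 and 484 in ERbeta2 MO embryos, against 1144 and 1029 in coMO and 1065 and 1187 in uninjected embryos. Both of these markers fell where mmp9 and mmp13a were high, at log2 -5.40 for cpa5 and -1.23 for lyz against coMO. With the poly-A scaling the fall of lyz against coMO did not pass. The fall of the sum was thus mostly that of cpa5 and is not read as a loss of neutrophils. Whether cpa5 is specific to these cells in whole embryos of this age was not checked. Of 18 macrophage markers 2 are named, with sums of 344 to 383 in ERbeta2 MO embryos, against 258 to 306 in coMO and 249 to 291 in uninjected embryos, in which ctss2.1 was higher and lcp1 lower (54.3 and 85.0 in ERbeta2 MO, 170 and 178 in coMO, 124 and 187 in uninjected embryos).

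Bone and cartilage markers, of which 5 of 13 are named, summed to 1064 to 1225 in ERbeta2 MO embryos, against 16687 to 18816 in coMO and 15108 to 16831 in uninjected embryos. The 3 tested (matn1, col10a1a and runx2a) fell, while sox9a, below the filter, was higher (81.3 and 97.0 in ERbeta2 MO embryos, against 41.5 and 54.2 in coMO and 43.6 and 58.3 in uninjected embryos). With the poly-A scaling the fall of runx2a did not pass in either comparison with ERbeta2 MO. The genes matn1 and col10a1a are the ones already counted among the matrix proteins and collagens above. The probe set named runx2a, DrAffx.2.1.S1_at, differs only in its ending from DrAffx.2.1.S1_s_at, which is named col1a1a, so the name runx2a is uncertain. Fibroblast and fin mesenchyme markers (5 of 16) summed to 17625 to 17987 in ERbeta2 MO embryos, against 47013 to 48313 in coMO and 47925 to 49838 in uninjected embryos. Of these, 4 fell and 1 rose in both comparisons: the fin fold gene and2 fell (log2 -2.51 against coMO), as did the type I collagen genes that make up most of the sum, and the mesenchymal transcription factor gene prrx1a rose (log2 1.38). Epidermal markers (7 of 20) summed to 24620 to 25217 in ERbeta2 MO embryos, against 38168 to 39361 in coMO and 35323 to 35351 in uninjected embryos. Hatching gland markers (3 of 7) summed to 1591 to 1615 in ERbeta2 MO embryos, against 3169 to 3418 in coMO and 2953 to 2977 in uninjected embryos. The fall of that sum was the fall of agr2 alone. The other named markers, he1.1 and he1.2, both below the filter, were higher in ERbeta2 MO embryos. For he1.2 the log2 difference was 0.76 against coMO and 1.44 against uninjected embryos. None of the named markers was at 0 on all arrays. All these sums are of markers named for a difference on these arrays, so no sum is read as a change in a cell type. The part of a changed cell makeup in the MMP and TIMP signals was not tested.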

How the data were processed

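Total RNA of whole embryos was labelled with biotin and measured on 6 zebrafish arrays. The intensities of the deposited value table are linear MAS5 signals, per the submitters' processing notes, with no version or settings stated. The fold of the 3 comparison tables is a linear ratio, per the file headers. Probe sets were named from those tables and updated through a RefSeq gene table (assembly GRCz12tu), through the Entrez identifier (1669 probe sets), the symbol (41) or an older symbol (197). Sequences and coordinates were not used here. From the signals, log2(signal + 16) was taken; controls and the 40% with the lowest mean were left out. limma 3.58.1 in R 4.3.3 (lmFit, eBayes with a trend) was fitted to the 6 arrays together, which left 3 residual degrees of freedom, with Benjamini-Hochberg adjustment over 9302 probe sets and a threshold of 0.05. All 5 members passed the filter, which used the mean over all 6 arrays, those of ERbeta2 MO included. The fit was tested on simulated data. The number of arrays limits the precision.

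Members, gene lists and tests were chosen with earlier results of these data known. Per matrix or control list the up to 4 genes with the largest absolute log2 differences against coMO, tested or not, were named; other genes (among them sparc, efemp2a, lamc1, col9a2, col14a1a, fosab and the cell markers named singly) were chosen after their values were seen. 3 symbols that matched a list prefix by spelling alone were removed. Same-numbered replicates did not deviate together (r = 0.016, 0.013 and 0.12), so the numbers were not taken as pairs. Alternatives covered offset, filter, scaling, trend, arrays in the fit, a replicate block and single arrays left out. Columns of values with no sample numbered 0.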

Additional observations from a re-analysis of the deposited data

How the results depend on the processing

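Under 17 alternatives the log2 differences of ERbeta2 MO from both controls kept their direction for mmp9, mmp13a and both timp2b probe sets. mmp14a reversed against coMO, to 0.063, with the poly-A spike scaling. Over all alternatives mmp9 ranged from 4.33 to 5.64 against coMO and from 4.20 to 5.18 against uninjected embryos. mmp14a against coMO ranged from -1.19 to -0.55 with single arrays left out; the ends came from leaving out the first and the second ERbeta2 MO array. Between coMO and uninjected embryos 0 members were called in any alternative, with all 5 tested except where the lowest 60% were left out, which left 2 of 5 tested (mmp9 and mmp13a). That filter also used the mean with the ERbeta2 MO arrays, where both were high. The poly-A spike scaling lowers all probe sets of that comparison alike: their median became -0.29, in place of 0.00 as deposited, and mmp13a (-0.020) and timp2b (-0.058 and -0.047) turned negative with it. With single arrays left out mmp14a ran from -0.33 to 0.17 there. Of all probe sets, 47 were called between coMO and uninjected embryos, 21 with no filter, 16 with the hybridization control scaling, 13 with the poly-A spike scaling, 11 without a trend, 92 with the replicate block and 10 to 41 with single arrays left out. Leaving out either coMO array gave 16 and 10 and the second uninjected array 15. Calls of ERbeta2 MO against coMO numbered 4126 to 5330 and against uninjected embryos 4139 to 5403 with single arrays left out. An arm left with 1 array is assumed to vary like the others. The replicate block changed no member's call.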

Other observations

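The named epidermal genes were split in ERbeta2 MO embryos. Against coMO the keratin gene krt18a.1 (log2 1.67), the adhesion gene cdh1 (1.44) and lye (4868 and 5166 in ERbeta2 MO embryos, against 2386 and 2267 in coMO embryos) rose. The keratin genes krt15 (-3.51), krt5 (-2.30) and krt91 (-2.17) and the annexin gene anxa1b (-0.64) fell. All 7 passed an adjusted p of 0.05 (limma), as did 97.0% of all named genes tested, so nothing is read from their passing. The fall of anxa1b was lost with the hybridization control scaling and turned positive with the poly-A scaling. krt5 gave 3586 and 3413 in ERbeta2 MO embryos, against 17235 and 17348 in coMO and 14874 and 15178 in uninjected embryos. Both directions thus appear within 1 tissue list on the arrays where mmp9 and mmp13a were high.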
